A study of Homo sapiens with 6 samples.

Results

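The 10 genes described here are feedback inhibitors, TCF/LEF factors and stem cell genes that beta-catenin is known to switch on in gut epithelium. They are AXIN2, RNF43, ZNRF3, DKK1, NKD1, TCF7, LEF1, LGR5, ASCL2 and SOX9, 10 of the 36415 genes to which the transcripts of the series could be assigned. A transcript was counted for a gene when its identifier, without the version, belonged to that gene in GENCODE release 44, and 79 transcripts of these genes were listed. The series holds 6 RNA-seq libraries, 3 of auxin-treated cells and 3 of cells treated with dimethyl sulfoxide (DMSO) as the vehicle. All come from HCT116 MCM2-mAID cells, a derivative of an established human colon cancer line, where both MCM2 alleles are fused to a degron and the plant auxin receptor AtAFB2 is driven by a CMV promoter; per the study's methods this line is a single clone. Auxin, given as 3-indoleacetic acid at 500 µM, leads to degradation of the tagged protein, and cells of both groups were synchronised and sorted in G1 phase. Cells without the degron were not part of the comparison, so auxin itself and loss of MCM2 protein cannot be told apart for any gene. Per the study, the 3 libraries of each group are independent replicates.

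In Wnt signalling, ligands bind Frizzled and LRP receptors, the AXIN-APC-GSK3 complex stops degrading beta-catenin, and beta-catenin enters the nucleus to act with TCF/LEF factors. Many of its targets restrain the pathway again. AXIN2 is a scaffold of the destruction complex, RNF43 and ZNRF3 are membrane ubiquitin ligases that remove Frizzled receptors, DKK1 is a secreted blocker of LRP co-receptors, and NKD1 binds Dishevelled. LGR5 is the R-spondin receptor that marks stem cells of the intestinal crypt, ASCL2 is the transcription factor of those cells, and SOX9 is a transcription factor of the crypt base. HCT116 cells carry an activating mutation of CTNNB1, the beta-catenin gene, which protects the mutant protein from the destruction complex. Pathway output was not compared with that of other cells here.

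Auxin libraries held between 62.8 and 66.8 M estimated counts and DMSO libraries between 52.5 and 68.4 M. Of 10 epithelial markers, 8 were above 1 CPM (counts scaled to a common library size with TMM factors), with a summed level of 4319 to 4521 CPM in auxin libraries and 4681 to 5161 CPM in DMSO libraries, while CDX1, a gut transcription factor, had at most 3 counts in any library. The summed levels of 10 leukocyte markers were 2.00 to 2.56 CPM in auxin libraries and 1.95 to 2.28 CPM in DMSO libraries, and those of 6 endothelial markers were 1.10 to 1.34 CPM in auxin libraries and 1.15 to 1.57 CPM in DMSO libraries. Of 9 fibroblast markers 1 was above 1 CPM (COL1A1), and their sums were 31.8 to 39.8 CPM in auxin libraries and 27.5 to 36.0 CPM in DMSO libraries. The part of these small differences in the results was not tested. MCM2 mRNA, whose protein is the degron target, had 354, 347 and 356 CPM in auxin libraries and 367, 343 and 389 CPM in DMSO libraries (log2 fold change -0.06, edgeR quasi-likelihood test, adjusted p = 0.557), and mRNA does not measure loss of the protein. CTNNB1 itself had 403, 380 and 377 CPM in auxin libraries and 406, 382 and 386 CPM in DMSO libraries (log2 fold change -0.02 ± 0.044 SE, adjusted p = 0.849), and the groups overlapped.

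Of the 10 members, 7 passed the filter on low counts and were tested. DKK1, RNF43 and AXIN2 were lower in auxin cells, by 21.1%, 16.8% and 12.4%, SOX9 was 12.6% higher, and ZNRF3, NKD1 and TCF7 did not pass the threshold of an adjusted p under 0.1. The groups did not overlap for 5 of the 7, against 26.7% of all tested genes. Over all 15765 tested genes the same test called 6.78%, made up of 2.46% that were lower and 4.32% that were higher in auxin, and the median log2 fold change was 0.01. The members were chosen with earlier results of these data known, so these shares do not measure an excess among Wnt targets. Adjusted p-values are Benjamini-Hochberg values of edgeR's quasi-likelihood test over all tested genes, for these and for the following genes. The 4 member calls were 4 without DMSO replicate 1 and 3 without auxin replicate 1, but 2 (RNF43 and DKK1) without auxin replicate 3 and 1 (RNF43) without auxin replicate 2, DMSO replicate 2 or DMSO replicate 3. Bulk counts cannot tell fewer cells expressing a gene from less mRNA per cell.

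RNF43 (ENSG00000108375, chr17:58353676-58417595, minus strand, hg38) had 63.8, 65.9 and 64.9 CPM in auxin libraries and 79.1, 78.2 and 76.7 CPM in DMSO libraries. All 3 auxin libraries lay below all 3 DMSO libraries, as did 13.0% of all tested genes, and the spread within each group was small (mean 64.9 ± 1.06 CPM over auxin libraries against 78.0 ± 1.21 CPM over DMSO libraries, SD, n = 3 each). The log2 fold change was -0.27 ± 0.041 (SE, adjusted p = 0.00798). It was called with each library left out in turn (adjusted p 0.0137 to 0.0558). On the log2(TPM + 1) scale, where TPM divides counts by effective length, the groups also did not overlap, with 22.1, 23.3 and 23.6 TPM in auxin libraries against 25.5, 24.9 and 25.6 TPM in DMSO libraries, but the log2 fold change was -0.14 and limma, which called 2.87% of all genes on that scale, gave an adjusted p of 0.220.

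ZNRF3 (ENSG00000183579, chr22:28883572-29057488, plus strand), the close relative of RNF43 with the same receptor-removing activity, had 18.2, 20.4 and 19.8 CPM in auxin libraries and 19.4, 21.3 and 18.9 CPM in DMSO libraries. Its groups overlapped and the difference on the log2 scale was -0.03 ± 0.068 (SE; adjusted p = 0.868). The log2 ratio of RNF43 to ZNRF3 in the same library was 1.81, 1.69 and 1.71 in auxin libraries, against 2.03, 1.88 and 2.02 in DMSO libraries. This pair was looked at after both genes' values were known, so the ratio is given without a test.

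DKK1 (ENSG00000107984, chr10:52314281-52318042, plus strand) was the most abundant member. It had 257, 289 and 296 CPM in auxin libraries and 332, 386 and 350 CPM in DMSO libraries. The groups did not overlap, although libraries within a group differed more than for RNF43 (mean 281 ± 20.8 CPM over auxin libraries against 356 ± 27.5 CPM over DMSO libraries, SD, n = 3 each). The log2 fold change was -0.34 ± 0.067 (SE, adjusted p = 0.0333). On the log2(TPM + 1) scale it was -0.26 with a limma adjusted p of 0.0910. The call was lost without auxin replicate 2 (adjusted p = 0.118), without DMSO replicate 2 (0.102) or without DMSO replicate 3 (0.119), where the log2 fold change was -0.36, -0.29 and -0.36.

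AXIN2 (ENSG00000168646, chr17:65528563-65561648, minus strand), often used as a readout of beta-catenin activity, had 22.4, 23.1 and 22.0 CPM in auxin libraries and 25.8, 25.3 and 25.9 CPM in DMSO libraries. The groups did not overlap and the log2 fold change was -0.19 ± 0.051 (SE, adjusted p = 0.0760). Per length the groups did overlap, at 9.32, 9.48 and 8.41 TPM in auxin libraries and 9.72, 9.42 and 9.30 TPM in DMSO libraries (log2 fold change -0.06, limma adjusted p = 0.676). The call also did not hold with offsets for effective length, a fit that called 2.32% of all genes (adjusted p = 0.366), and leaving out any library other than DMSO replicate 1 gave an adjusted p of 0.111 to 0.237.

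NKD1 (ENSG00000140807, chr16:50548396-50649249, plus strand) had 19.4, 19.5 and 19.8 CPM in auxin libraries and 20.3, 19.3 and 19.95 CPM in DMSO libraries. The groups overlapped and the log2 fold change was -0.02 ± 0.054 (SE, adjusted p = 0.883). AXIN2 and NKD1 are both intracellular brakes on the pathway and were measured at similar depth. The log2 ratio of AXIN2 to NKD1 was 0.20, 0.25 and 0.15 in auxin libraries against 0.35, 0.39 and 0.38 in DMSO libraries, again given without a test.

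**Figure D1:**
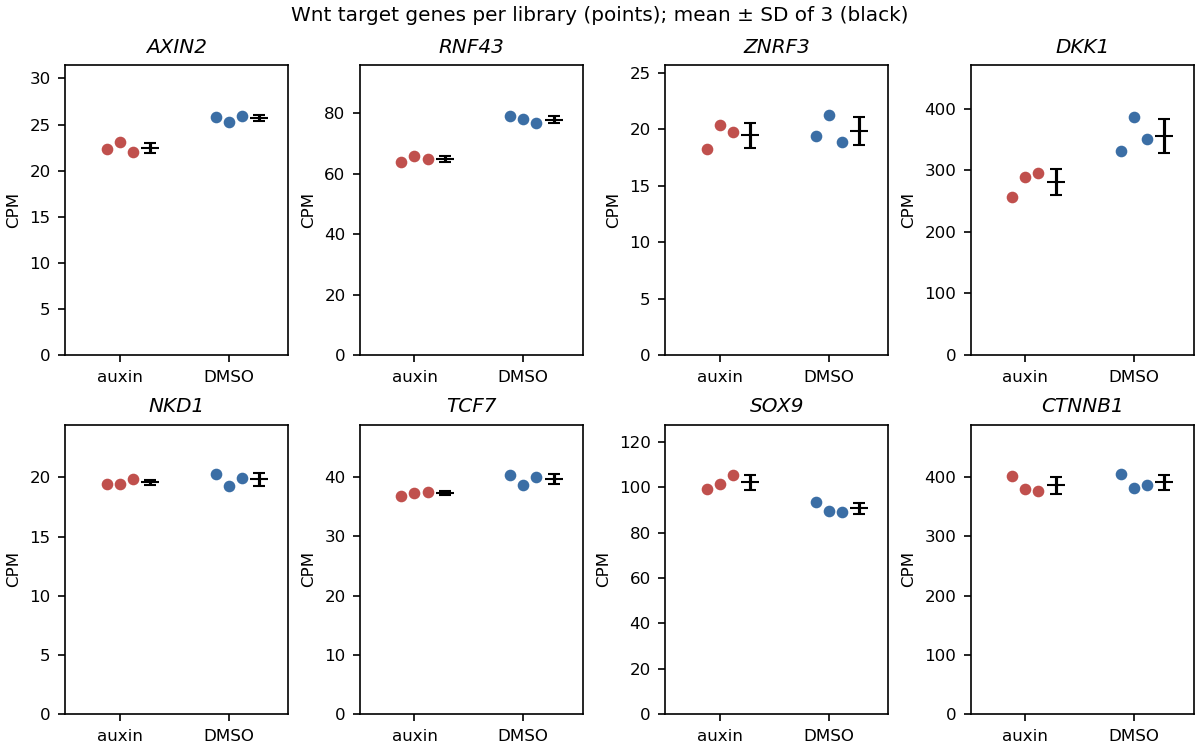
Level of the 7 tested members and of CTNNB1 in each library, in CPM from 0, with auxin left of DMSO; points are single libraries and black marks are the mean and SD of 3 libraries. RNF43, DKK1 and AXIN2 sit lower in all auxin libraries (RNF43 mean 64.9 against 78.0 CPM), SOX9 sits higher (102 against 90.7 CPM), and ZNRF3, NKD1 and CTNNB1 overlap.

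Among the TCF/LEF factors, the DNA-binding partners of beta-catenin, TCF7 (ENSG00000081059, chr5:134114681-134151865, plus strand) had 36.9, 37.3 and 37.5 CPM in auxin libraries and 40.3, 38.6 and 40.0 CPM in DMSO libraries. The groups did not overlap, but the log2 fold change of -0.09 ± 0.045 (SE) did not pass the threshold (adjusted p = 0.277). Per length the groups overlapped, with means of 18.8 ± 0.667 TPM over auxin libraries against 18.7 ± 0.861 TPM over DMSO libraries (SD, n = 3 each). TCF7 exons share 210 bases with exons of SKP1 on the opposite strand, a gene at 274 CPM, and the strand setting of the read assignment is not stated in the sources used. TCF7 produces a shorter protein that cannot bind beta-catenin from an internal start. Transcripts that begin at or after the internal start of the RefSeq annotation took 2.45%, 1.56% and 1.27% of TCF7 counts in auxin libraries. In DMSO libraries they took 2.19%, 2.70% and 2.41%. The listed transcripts that begin there are short ones of 459 to 799 bases or retained-intron transcripts. These shares therefore cannot tell how much of TCF7 is the shorter form.

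LEF1 (ENSG00000138795, chr4:108047545-108168956, minus strand), which is absent from normal colon but switched on in many colon cancers, had 1, 2 and 2 counts in auxin libraries and 0, 0 and 1 in DMSO libraries. These few counts fell on transcripts without an annotated reading frame, LEF1-205 foremost. The other family members, named here for the level of the family, were TCF7L2 at 18.96 ± 1.93 TPM over auxin libraries against 16.1 ± 1.60 TPM over DMSO libraries and TCF7L1 at 8.42 ± 0.529 TPM over auxin libraries against 7.83 ± 0.503 TPM over DMSO libraries (SD, n = 3 each). TCF7 and TCF7L2 were therefore the main family mRNAs in both groups, and LEF1 was at or below the limit of these libraries.

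SOX9 (ENSG00000125398, chr17:72121020-72126416, plus strand) was the sole stem cell gene of the list with appreciable counts and the sole member called higher. It had 99.4, 101 and 106 CPM in auxin libraries and 93.5, 89.7 and 89.0 CPM in DMSO libraries. The groups did not overlap, with auxin higher, as in 13.7% of all tested genes, and the log2 fold change was 0.17 ± 0.043 (SE, adjusted p = 0.0661). On the log2(TPM + 1) scale it was 0.23 (limma adjusted p = 0.0943). With the trend of fold change on gene length and GC content removed it was 0.12 (adjusted p = 0.133), and the call was also lost with offsets for effective length (0.119) and without auxin replicate 2 (0.234), auxin replicate 3 (0.229), DMSO replicate 2 (0.153) or DMSO replicate 3 (0.190).

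LGR5 (ENSG00000139292, chr12:71439798-71586310, plus strand) had 2, 5 and 6 counts in auxin libraries and 5, 0 and 3 in DMSO libraries. ASCL2 (ENSG00000183734, chr11:2268498-2270588, minus strand) had 0, 1 and 1 counts in auxin libraries and 0, 0 and 3 in DMSO libraries. A floor of 3 counts corresponds to 0.046 to 0.060 CPM here, and the highest value of LEF1, LGR5 and ASCL2 in any library was 0.032, 0.096 and 0.049 CPM. A difference between the groups was not detectable for these 3 genes at this depth. Their most abundant transcripts by TPM were LEF1-205, LGR5-201 and ASCL2-201.

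Fold changes followed gene length in these libraries, which bears on the length of each member. In the quintile of tested genes with the shortest effective length (median 745 bases) the median log2 fold change was -0.07, with 16 genes called higher and 154 lower, and in the longest quintile (median 4850 bases) it was 0.09, with 356 called higher and 14 lower. DKK1 has an effective length of 1080 bases, whereas AXIN2, RNF43 and SOX9 have 3235, 3680 and 3761 bases. The value of DKK1 is a mean over its transcripts weighted by TPM, and its coding transcript DKK1-201 has 1805 bases. Once the trend on length and GC had been taken out, a fit that called 4.55% of all genes, the log2 fold change was -0.29 for DKK1, -0.31 for RNF43 and -0.23 for AXIN2, and all 3 remained called.

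**Figure D2:**
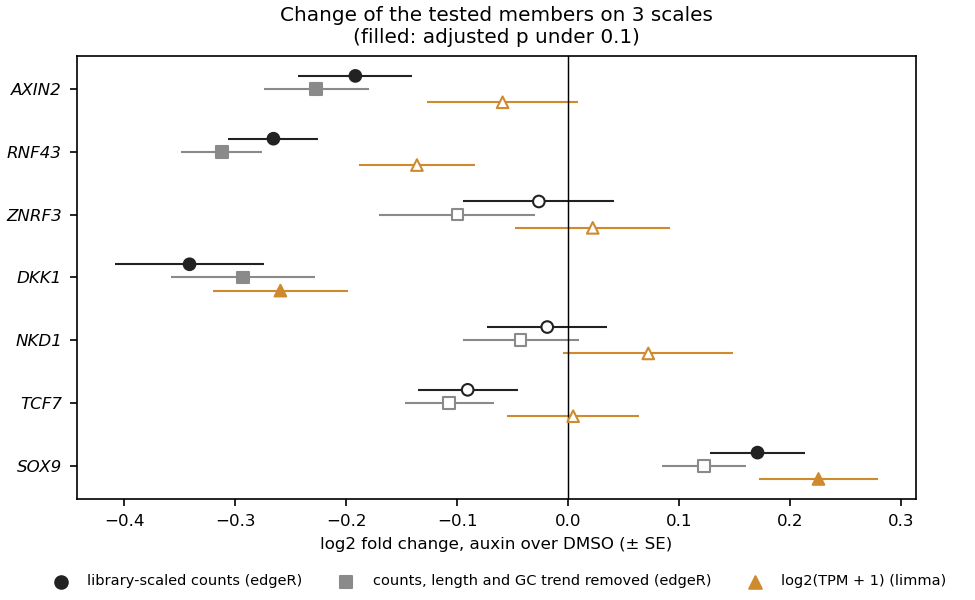
Log2 fold change of auxin over DMSO with its standard error for the 7 tested members, from library-scaled counts (circles), from counts with the length and GC trend removed (squares) and from log2(TPM + 1) (triangles); filled marks have an adjusted p under 0.1. DKK1 is filled on all 3 scales, RNF43 and AXIN2 on both count scales, and SOX9 on counts (0.17) and TPM (0.23) but not with the trend removed (0.12).

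Levels between genes can be compared per length. Over all 6 libraries DKK1 averaged 366 TPM, SOX9 32.0, RNF43 24.1, TCF7 18.8, AXIN2 9.27, NKD1 7.61 and ZNRF3 4.99 TPM, and the ranges of neighbours in this order did not overlap. LGR5 (0.021 TPM), LEF1 (0.018 TPM) and ASCL2 (0.013 TPM) followed, and their ranges overlapped each other. Among all tested genes DKK1 stood at percentile 97.9 of mean TPM and ZNRF3 at 39.3, with AXIN2 near the middle at 49.5. The coding transcript DKK1-201 held 55.6% of DKK1 TPM in auxin and 56.7% in DMSO. DKK1-203, of 544 bases and without an annotated reading frame, held 32.0% in auxin and 31.8% in DMSO. The place of NKD1 rests on short transcripts: its coding transcript NKD1-201 of 17039 bases held 89.7% of NKD1 counts in auxin and 89.8% in DMSO, but NKD1-202, of 477 bases and without an annotated reading frame, held 55.8% of NKD1 TPM in auxin and 52.9% in DMSO, and NKD1-203, a retained-intron transcript of 748 bases, held 27.2% in auxin and 29.5% in DMSO.

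**Figure D3:**
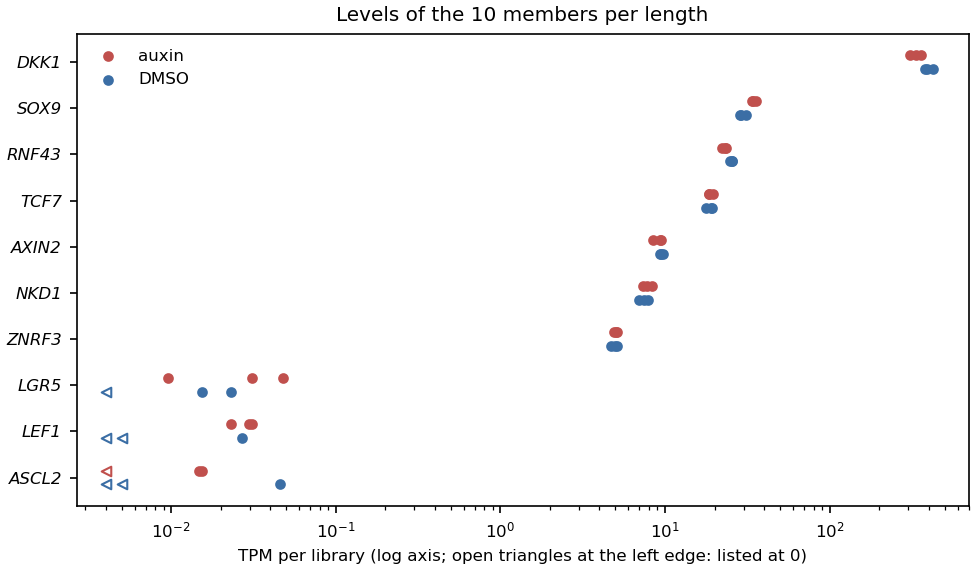
TPM of the 10 members in each library on a log axis, ordered by mean, with auxin above DMSO in each row; open triangles at the left edge mark libraries where a gene is listed at 0. Expressed members span DKK1 (366 TPM) to ZNRF3 (4.99 TPM), and LGR5, LEF1 and ASCL2 lie at or below 0.048 TPM in every library.

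Start regions of the members were read from RefSeq promoter windows (GRCh38.p14, 250 bases before to 50 bases after the start site), which were held for RNF43, DKK1, TCF7 and LEF1. They are shown for DKK1, the member with the highest level, and for RNF43, whose start is shared with a read-through gene. In the DKK1 window capitals mark CTTTGA, part of CTTTGAT, the form of the TCF/LEF core that was searched, on the minus and then the plus strand. They also mark the TATA sequence TATAAA. In the RNF43 window capitals mark the 50 bases from the RefSeq start site on. GENCODE transcripts of RNF43 begin up to 61 bases earlier, within the lower-case part.
DKK1, chr10:52314031-52314330, plus strand: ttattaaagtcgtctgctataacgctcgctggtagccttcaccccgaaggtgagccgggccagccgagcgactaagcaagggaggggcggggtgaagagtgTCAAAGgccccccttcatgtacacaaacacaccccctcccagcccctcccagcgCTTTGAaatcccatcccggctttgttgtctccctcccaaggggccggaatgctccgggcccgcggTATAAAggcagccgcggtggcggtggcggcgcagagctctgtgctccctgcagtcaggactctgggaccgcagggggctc
RNF43, chr17:58417485-58417784, minus strand: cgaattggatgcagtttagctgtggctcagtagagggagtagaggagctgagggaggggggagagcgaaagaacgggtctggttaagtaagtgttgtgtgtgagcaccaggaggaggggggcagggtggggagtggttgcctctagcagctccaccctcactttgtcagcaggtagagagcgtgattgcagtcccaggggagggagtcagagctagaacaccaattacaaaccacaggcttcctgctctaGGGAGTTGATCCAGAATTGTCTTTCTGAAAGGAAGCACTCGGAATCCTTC
The letters CTTTGAT, searched on both strands, were in 0 of the 6 windows of these 4 genes and in 2.62% of 35116 RefSeq windows. Other full-length forms of the core were not searched, so their absence does not mean that a window lacks a TCF/LEF site. The letters CTTTGA, searched on both strands and contained in CTTTGAT, were searched after the windows had been seen, as was TATAAA. They occurred 149 and 95 bases before the DKK1 start and in no other window of the 4 genes, against 12.92% of all windows with at least 1 match. TATAAA on the sense strand stood 30 bases before the DKK1 start and was in 7.33% of all windows. These are matches of letters in a short window.

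At the level of transcripts, 78049 were tested and 2 were called (0.00256%), neither of them from a member gene, and 5129 had an unadjusted p under 0.05. Of the 30 member transcripts tested by edgeR, 0 were called and 7 had an unadjusted p under 0.05, with a smallest adjusted p of 0.432. The 6 of these 7 that were lower were DKK1-201, DKK1-203, AXIN2-201, RNF43-201, TCF7-202 and TCF7-224, and SOX9-201 was higher. These 7 were named after their values were seen. The log2 fold change was -0.35 ± 0.070 (SE) for the coding transcript DKK1-201 and -0.31 ± 0.090 for DKK1-203, which has no annotated reading frame.

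Shares of a gene's estimated counts were compared for the 16 transcripts with a mean share of at least 5%. By 2-sided exact permutation tests the p lay between 0.2 and 1.0 (adjusted p = 1.0 for every share), and 3 against 3 libraries allow no exact p below 0.1. No share could therefore pass the threshold, and these tests cannot tell changed from unchanged use of transcripts. The 16 include SOX9-201, which holds 100% of its gene in every library. AXIN2 counts were divided between AXIN2-208, with 62.3 ± 3.19% in auxin and 56.9 ± 6.47% in DMSO, and AXIN2-201, with 31.6 ± 3.35% in auxin against 38.2 ± 6.98% in DMSO (SD, n = 3 each). AXIN2-201 took 27.8%, 33.7% and 33.4% in auxin libraries and 31.3%, 38.1% and 45.3% in DMSO libraries, so that the groups overlapped. In the transcript test the log2 fold change was -0.46 ± 0.167 (SE) for AXIN2-201 and -0.06 ± 0.102 for AXIN2-208, and neither passed the threshold (adjusted p = 0.725 and 0.961).

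RNF43 was carried by RNF43-208, with 54.1 ± 3.01% of its counts in auxin against 51.1 ± 5.30% in DMSO, by RNF43-207, with 17.7 ± 3.96% in auxin against 17.2 ± 3.61% in DMSO, and by RNF43-201, with 15.9 ± 0.793% in auxin against 19.4 ± 3.52% in DMSO (SD, n = 3 each). RNF43-207 and RNF43-201 hold less than 20% of the gene and were named after their values were seen. As shares of TPM, RNF43-201 took 12.9%, 13.4% and 13.1% in auxin libraries and 14.1%, 16.7% and 19.3% in DMSO libraries, the 1 share of 16 whose groups did not overlap (exact permutation p = 0.1, the smallest possible, adjusted p = 1.0). ZNRF3-203 held 75.5% of ZNRF3 counts in auxin and 75.1% in DMSO, with ZNRF3-202 at 24.5% in auxin and 24.1% in DMSO. TCF7-201 held 56.9% of TCF7 counts in auxin and 55.0% in DMSO, with TCF7-203 at 34.2% in auxin and 33.9% in DMSO. DKK1-201 held 84.6% in auxin and 85.3% in DMSO, and all SOX9 counts were on SOX9-201.

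**Figure D4:**
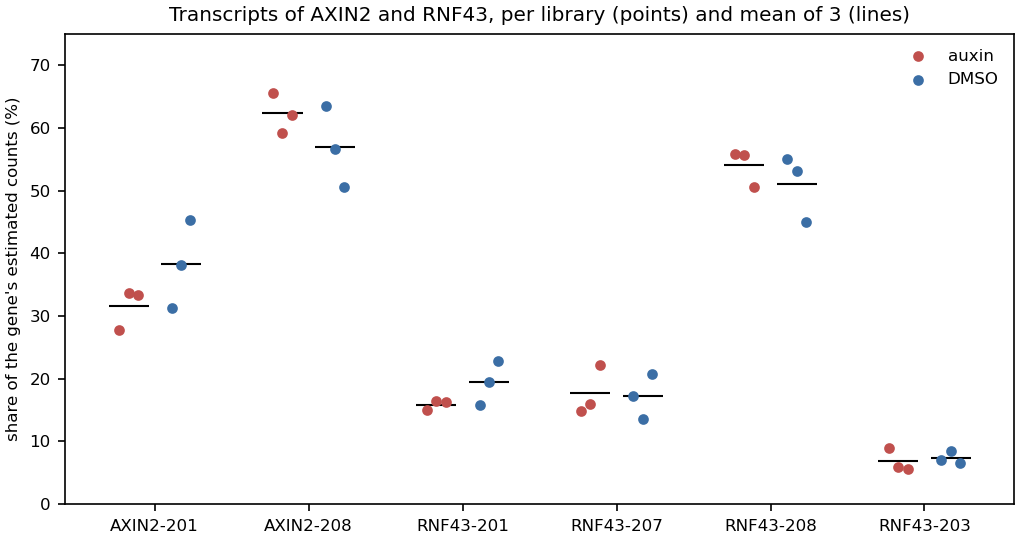
Share of the gene's estimated counts, in percent, taken by the main transcripts of AXIN2 and RNF43 in each library (points) with the mean of 3 libraries (lines), auxin left of DMSO. The groups overlap for every transcript shown, also for AXIN2-201 (31.6% in auxin and 38.2% in DMSO).

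RNF43 overlaps ENSG00000285897 (chr17:58345206-58417595, minus strand), a read-through gene that runs on into SUPT4H1 downstream. It starts 61 bases before the RefSeq start of RNF43, at the base where RNF43 starts in GENCODE. Of the 43-base windows of its transcript ENST00000648873, 74.0% also occur in an RNF43 transcript, 21.5% in SUPT4H1 and 4.5% in neither, and 76.3% of the windows of RNF43-208 occur in the read-through transcript. Reads of both genes therefore cannot be fully separated. The read-through gene was listed at 2.30, 2.51 and 2.76 CPM in auxin libraries and 4.90, 4.46 and 2.93 CPM in DMSO libraries, without overlap but with DMSO replicate 3 close to the auxin libraries (log2 fold change -0.70 ± 0.180 SE, adjusted p = 0.0738). This call was lost when any of the auxin libraries was left out (adjusted p = 0.136, 0.259 and 0.158 without replicate 1, 2 and 3) and without DMSO replicate 2 (0.165). RNF43 summed with it had a log2 fold change of -0.28, and RNF43 from its protein-coding transcripts alone -0.27, and both were called.

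The rest of the pathway was described with 8 lists of 145 genes by role, also chosen with earlier results of these data known. Of these genes 121 were tested, 7 were higher and 4 lower in auxin, which is 9.09% of those tested, against 6.78% of all tested genes. By list, the share called was 5.88% of ligands, 12.5% of receptors, 0% of R-spondins and 25.0% of other antagonists. It was 9.52% of destruction complex genes, 0% of nuclear co-factors, 7.41% of other Wnt targets and 16.7% of other stem cell genes. With at most 2 calls in a list, these shares are not a result about any role. The lists' median log2 fold change was 0.03, against 0.01 for all tested genes. After removal of the length and GC trend 4 were higher and 5 lower. The count of 11 was 11 without auxin replicate 1 and 13 without DMSO replicate 1, but fell to 2 when auxin replicate 2 or DMSO replicate 3 was left out and to 1 when auxin replicate 3 or DMSO replicate 2 was. FZD7 alone was called with each of the 6 libraries left out, SOSTDC1 in 4 of 6 cases, and the other 9 in 1 or 2 of 6.

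Among 17 tested Wnt ligands and secretion factors of 21 listed, WNT16, a ligand, was the sole gene called. It had 52.5, 43.5 and 40.7 CPM in auxin libraries and 57.4, 59.4 and 54.1 CPM in DMSO libraries (log2 fold change -0.32 ± 0.088 SE, adjusted p = 0.0910). Of 16 tested receptors and co-receptors of 18 listed, the Frizzled receptors FZD7 and FZD4 were higher and 0 were lower. FZD7 had 23.7, 22.2 and 23.1 CPM in auxin libraries and 17.7, 19.2 and 18.4 CPM in DMSO libraries (log2 fold change 0.32 ± 0.058 SE, adjusted p = 0.0202), and was called with each library left out in turn. FZD4 had 6.46, 7.07 and 6.76 CPM in auxin libraries and 5.56, 5.89 and 4.80 CPM in DMSO libraries (0.32 ± 0.095, adjusted p = 0.0954). The receptor list had a median log2 fold change of 0.16, and of 0.10 after the trend on length and GC had been removed, when FZD4 was no longer called (adjusted p = 0.228).

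Of the R-spondins, ligands of LGR receptors, 2 of 4 were tested and 0 called by edgeR, DESeq2 or limma-voom, with 0 at an unadjusted p under 0.05 (RSPO1 had the smallest p, adjusted p = 0.471). RSPO1 averaged 0.499 CPM over auxin libraries against 0.401 CPM over DMSO libraries. Of 8 tested genes among 19 other secreted or membrane antagonists, SOSTDC1 and TRABD2A were higher. SOSTDC1, a secreted inhibitor of Wnt and BMP signals, was near the limit of detection with 11, 13 and 22 counts in auxin libraries and 2, 2 and 4 counts in DMSO libraries (log2 fold change 2.37 ± 0.479 SE, adjusted p = 0.0324). TRABD2A, a membrane protease that cleaves Wnt ligands, had a log2 fold change of 0.30 ± 0.072 (adjusted p = 0.0609).

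In the beta-catenin and destruction complex list all 21 genes were tested. TNKS2, a tankyrase that marks AXIN for degradation, was higher at 45.1, 42.7 and 42.5 CPM in auxin libraries against 37.7, 38.6 and 37.0 CPM in DMSO libraries (log2 fold change 0.20 ± 0.047 SE, adjusted p = 0.0538). GSK3B, the kinase that phosphorylates beta-catenin, had a log2 fold change of 0.16 ± 0.046 (adjusted p = 0.0927). After removal of the length and GC trend neither was called (adjusted p = 0.200 and 0.257), and on log2(TPM + 1) the value of GSK3B was 0.47 (limma adjusted p = 0.0171). Of 18 tested nuclear co-factors of 19 listed, 0 were called by edgeR or limma-voom and 2 by DESeq2 (BCL9 and BCL9L), with 3 at an unadjusted p under 0.05 in edgeR. BCL9L, a co-activator of beta-catenin, had the smallest p (log2 fold change -0.12 ± 0.039 SE, adjusted p = 0.118; with the trend removed -0.21, adjusted p = 0.0130).

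Of 27 tested genes among 29 other Wnt targets, 0 were higher and JAG1 and BMP4 were lower. JAG1, a Notch ligand, had 73.0, 74.7 and 77.0 CPM in auxin libraries and 84.4, 97.7 and 82.2 CPM in DMSO libraries (log2 fold change -0.23 ± 0.063 SE, adjusted p = 0.0812). BMP4, a secreted differentiation signal, had a log2 fold change of -0.14 ± 0.040 (adjusted p = 0.0859). The median log2 fold change of this list was -0.0034, against 0.01 for all tested genes. Of 12 tested genes among 14 other intestinal stem cell genes, LRIG1, a membrane inhibitor of ERBB receptors, was higher (0.36 ± 0.081, adjusted p = 0.0481) and SOX4, a transcription factor, was lower (-0.16 ± 0.042, adjusted p = 0.0755).

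**Figure D5:**
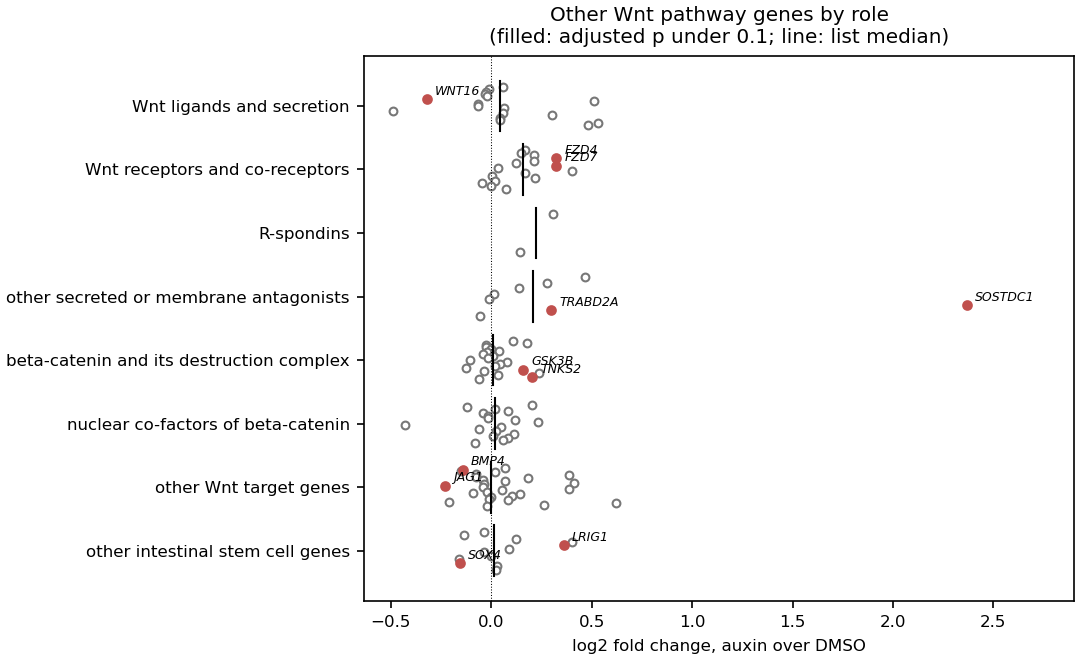
Log2 fold change of auxin over DMSO for the tested genes of the 8 other Wnt pathway lists; filled red points have an adjusted p under 0.1 and are named, open points do not pass, and the black line is the list's median. Most genes lie near 0, both called receptors and both called antagonists lie to the right, and the ligand list has WNT16 alone as a called gene, at -0.32.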

How the data were processed

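Poly(A)-selected, strand-marking libraries were sequenced in paired ends of 43 bases. Per the study's methods the authors assigned reads to hg38 transcripts with kallisto; the transcript release and strand setting are not stated in the sources used. The deposited tables hold estimated counts per transcript, not normalised, with effective lengths. Of 199240 transcripts, 178869 (89.8%) matched GENCODE release 44, with at least 96.18% of each library's counts. Estimated counts were summed per gene and rounded. Genes were tested with edgeR 4.0.16 (R 4.3.3) by the robust quasi-likelihood test with TMM. Treatment was the only term, and the default filter was used (minimum count 10, total 15). An adjusted p under 0.1 was a call. The study also used an FDR of 0.1, but for transcripts in sleuth's Wald test. Its calls and the gene calls given here are therefore not like for like. TPM was computed from counts and effective lengths and tested with limma 3.58.1 at pseudocounts of 1 and 0.1. Length and GC trends were removed as smooth offsets (mgcv 1.9.3). Alternatives comprised DESeq2 1.42.0, limma-voom, other filters and leaving out each library. Named were all members, CTNNB1, MCM2, the read-through gene and, per list, up to 4 called genes or else the gene with the smallest p; of each member, the transcript highest in TPM, called transcripts and those with a share of at least 20%; transcripts outside this rule are marked in the text. Members and lists were chosen with earlier results of these data known.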

Additional observations from a re-analysis of the deposited data

How the results depend on the processing

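Of the tested members RNF43 was called under 17 of 19 alternatives, DKK1 under 14 of 17, SOX9 under 11 of 17 and AXIN2 under 9 of 17, always in the same direction. Leaving out 1 library at a time gave 1 to 4 member calls, and log2 fold changes of -0.28 to -0.25 for RNF43, -0.40 to -0.28 for DKK1, -0.21 to -0.18 for AXIN2 and 0.15 to 0.19 for SOX9. Of the 4 member calls, 2 were left with effective length offsets, 2 with log2(TPM + 1) and 2 with log2(TPM + 0.1). Depth limits LEF1, LGR5 and ASCL2, which without the low-count filter had adjusted p of 0.600, 0.741 and 0.883. With 3 libraries a group, only the part of kallisto's assignment error that differs between libraries enters, through their spread. A misassignment shared by all libraries is not measured.

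Over all genes the 1069 calls became 1700 with DESeq2, 366 with effective length offsets, 452 with log2(TPM + 1) and 482 with log2(TPM + 0.1), and 183 to 1566 without 1 library (183 without auxin replicate 2). Of the calls 63.7% were higher in auxin, against 46.3% by DESeq2, 76.5% once offsets for effective length were used and 92.9% on either TPM scale. The 11 calls in the pathway lists became 17 with DESeq2, 3 with effective length offsets, 2 with log2(TPM + 1), 4 with log2(TPM + 0.1) and 1 to 13 without 1 library. The 2 transcript calls became 28 with a minimum count of 50 and 0 to 1 without 1 library. The motif search, with CTTTGA chosen after seeing the data, matched 1 window in place of 0. The cause of these shifts was not tested.

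Genes whose values changed sign were not called in the main fit, nor where the sign was opposite to it. TCF7 alone of them was called elsewhere, lower in auxin with a replicate block as given below. On log2(TPM + 1) and log2(TPM + 0.1) the log2 fold change was 0.022 and 0.026 for ZNRF3, 0.072 and 0.081 for NKD1, 0.0045 and 0.0047 for TCF7, 0.0341 and 0.0343 for CTNNB1 and 0.01695 and 0.01704 for MCM2. NKD1 was at 0.019 with effective length offsets, and ZNRF3 ranged from -0.064 to 0.019 with 1 library left out.

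Replicate numbers are shared by the groups, and the labels do not say whether they pair auxin with DMSO libraries. Deviations from the group mean correlated at 0.18, 0.05 and 0.07 between same-numbered libraries. Each library correlated best with its own number, for auxin replicate 2 narrowly (0.051 against 0.05 with DMSO replicate 3). The main fit did not use the numbers as pairs, and these values do not settle whether they are. A replicate block raised the calls to 4867 genes and 40 pathway genes, and to 3677 and 28 when the length and GC trend was removed as well; it left 0 transcript calls. With the block DKK1, RNF43, AXIN2 and SOX9 stayed called. TCF7 was called as well (adjusted p = 0.0909, and 0.0502 with the trend removed), and the direction of each tested member stayed.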
